A study of Mus musculus with 12 samples.

Results

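The genes described here encode subunits of the inhibitory heterotrimeric G proteins, the switches through which opioid receptors signal. They were picked by name as subunits of these proteins; no measured value entered the rule, although earlier results of these data were known when it was set. They number 10 of the 55418 genes in the count table: the alpha subunits Gnai1, Gnai2, Gnai3, Gnao1 and Gnaz, the beta subunits Gnb1, Gnb2 and Gnb4, and the gamma subunits Gng2 and Gng3. All 10 had 10 counts or more in every library. Transcripts were measured by poly-A RNA-seq in the brainstem (medulla and pons) of outbred CFW mice on postnatal day (P) 15. Saline mice (6, numbered 1 to 3 for males and 4 to 6 for females) and morphine mice (6, numbered 1 to 3 for females and 4 to 6 for males) were injected subcutaneously 2 times daily from P1 to P14. The morphine dose was 15 mg/kg, and tissue was taken 16 h after the last injection, a time of spontaneous withdrawal. Each library came from 1 mouse, so that the mouse is the replicate. By the study's methods each litter was split at random between saline and morphine. The study also names the dam as a covariate, but no label gives it, so that it could not be adjusted for here.

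An inhibitory G protein is a complex of an alpha subunit, which binds guanine nucleotide, with a beta and a gamma subunit that stay together as a dimer. When an opioid, alpha-2 adrenergic, or other Gi/o-coupled receptor is activated, the alpha subunit exchanges GDP for GTP and separates from the dimer. The alpha subunit then inhibits adenylyl cyclase, and the beta-gamma dimer opens GIRK potassium channels and restrains voltage-gated calcium channels. In the brainstem these steps are part of how opioids slow noradrenergic neurons and depress breathing, and the cyclic AMP pathway is known to rebound when an opioid is withdrawn.

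The paralogs of this family encode closely related proteins in transcripts of differing base composition. The 20 last codons before the stop codon are shown for the Gnai and Gnb genes to make that visible beside the GC content given below, read 5′ to 3′ on the coding strand from the GENCODE M21 annotation of GRCm38. Capitals mark a G or C at the third position of a codon.
Gnai1: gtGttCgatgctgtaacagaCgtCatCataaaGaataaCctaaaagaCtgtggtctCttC
Gnai2: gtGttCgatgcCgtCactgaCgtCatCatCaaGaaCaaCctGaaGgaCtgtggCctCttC
Gnai3: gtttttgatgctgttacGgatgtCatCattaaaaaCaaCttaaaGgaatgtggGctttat
Gnb1: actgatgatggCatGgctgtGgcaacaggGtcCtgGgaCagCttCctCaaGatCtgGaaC
Gnb2: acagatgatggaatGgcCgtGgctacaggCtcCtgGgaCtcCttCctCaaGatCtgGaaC
Gnb4: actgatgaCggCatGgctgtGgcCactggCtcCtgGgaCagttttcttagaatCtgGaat
These stretches lie at chr5:18267022-18267081, chr9:107615638-107615697 and chr3:108109425-108109484 for Gnai1, Gnai2 and Gnai3, all on the minus strand. Those of Gnb1, Gnb2 and Gnb4 lie at chr4:155557215-155557274 on the plus strand and at chr5:137528506-137528565 and chr3:32585123-32585182 on the minus strand. In Gnai2 the third position was G or C in 17 of the 20 codons, against 10 in Gnai1 and 7 in Gnai3. Over the longest annotated coding sequence the share was 76.6% in Gnai2, 64.1% in Gnai1 and 48.3% in Gnai3. The ends of Gnb1 and Gnb2 both had 14 such codons and that of Gnb4 had 11, but over the longest coding sequence Gnb2 reached 74.3%, against 55.9% for Gnb1 and 59.7% for Gnb4. The other alpha genes were GC-rich at this position (Gnaz 79.7%, Gnao1 70.1%), as were Gng2 (70.4%) and Gng3 (68.0%).

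Counts per library totalled 27850565 to 48097947, and levels are given as CPM, the count of a gene relative to the library total after trimmed-mean (TMM) scaling. Saline males 1 and 2 stood apart from the other mice. They were the closest pair within any group (mean chi-square per gene 15.1), and saline male 3 was far from both (250 and 324). The first principal component of all genes held 40.2% of the variance, with saline males 1 and 2 at one end and saline male 3 at the other. It followed a library's GC slope, the change in log2 CPM for each 10 points of exonic GC content relative to the mean library, with Pearson's r = 0.993 over the 12 libraries. That slope was 0.43 and 0.55 in saline males 1 and 2 and -0.52 in saline male 3, against -0.32 to 0.03 in saline females, -0.13 to 0.06 in morphine females and -0.12 to 0.26 in morphine males. The library labelled morphine male 6 was like neither sex, with Xist at 380 CPM and the Y-linked Ddx3y at 12.8 CPM. In the other males Xist was between 0.40 and 2.65 CPM and Ddx3y between 115 and 199 CPM. In the females Xist was between 550 and 979 CPM and Ddx3y between 0.06 and 0.73 CPM. The Y-linked Eif2s3y, Kdm5d and Uty of this library, at 19.1, 12.4 and 9.05 CPM, also lay between the females and the other males. The cause was not tested, and the library was kept as a male. Of the tissue markers, 7 of 7 hindbrain Hox genes were expressed (summed level 75.7 to 109 CPM), while the 5 thoracic and lumbar Hox genes summed to at most 0.0924 CPM and the 4 forebrain genes to at most 2.67 CPM. The extraction text of the labels speaks of spinal cord.

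All members were abundant (the plot of levels per kilobase), but over a wide range. Levels per kilobase of exon, the scale on which genes can be compared, averaged 156.8 ± 8.69 CPM (SD, n = 12) for Gnb1 and 8.91 ± 0.62 CPM for Gnb4, the lowest. Gng3 averaged 87.6 ± 15.9, Gnai1 63.8 ± 9.5, Gnai2 36.8 ± 10.8, Gnao1 36.4 ± 3.6, Gng2 29.5 ± 2.98, Gnb2 26.1 ± 17.2, Gnai3 23.8 ± 3.55 and Gnaz 10.1 ± 1.68 CPM per kilobase. Gnb1 was above Gng3 in all 12 mice, Gnai3 was above Gnaz in all 12. Gnao1 was above Gng2 in 11 mice, Gng3 above Gnai1 and Gnai1 above Gnai2 in 10, and Gng2 above Gnb2 in 9. The neighbours Gnai2 and Gnao1, Gng2 and Gnb2, Gnb2 and Gnai3, and Gnaz and Gnb4 had means closer than the larger of their SDs. No test compared levels between genes. Gnai2 was above Gnao1 in 5 of 12 mice and Gnaz above Gnb4 in 7. Gnb2 had a higher mean than Gnai3 but was above it in 3 mice, saline males 1 and 2 and morphine male 6. The 10th and lowest, Gnb4, was still at the 73.8th percentile of the genes tested. The order depended on the length used. With the longest transcript in place of all annotated exons, Gnao1 (72.9) passed Gnai1 (63.8), and Gnai2 (62.8) came close to Gnai1. Gnb2 (47.8) passed Gng2 (33.8), and Gnb4 (18.9) passed Gnaz (10.4 CPM per kilobase), which was then the lowest.

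**Figure D1:**
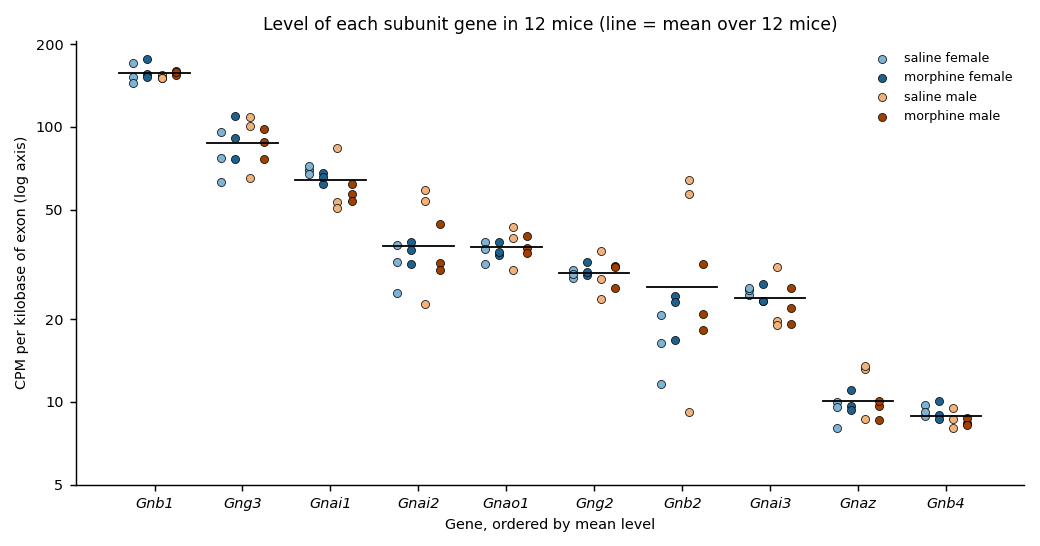
Level of each subunit gene in CPM per kilobase of exon (log axis), 1 point per mouse coloured by group, with a line at the mean over 12 mice. Gnb1 is highest in every mouse, the points of Gnb2 run from 9.15 to 64.1, and those of Gnb4 lie between 8.00 and 10.1.

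Among the inhibitory alpha genes, Gnai1 made up 37.4% of the summed per-kilobase level over the 12 mice, Gnai2 21.4%, Gnao1 21.3%, Gnai3 14% and Gnaz 5.9%. These shares do not depend on how libraries are scaled, but they do depend on the length used. By the union of exons Gnai1 was the largest in 10 of the 12 mice, whereas by the longest transcript the mean level of Gnao1 exceeded that of Gnai1. In saline male 3 it held 47.6% against 12.8% for Gnai2, whereas in saline male 2 Gnai2 held 31.8% against 27.3% for Gnai1, and in saline male 1 both held 29.8%. Gnb1 made up 82.2% of the 3 beta genes, from 67.5% in saline male 2 to 89.0% in saline male 3. Gnb2 was the mirror of it, at 28.6% and 5.4% in the same mice. Gng3 made up 74.4% of the 2 gamma genes, from 65.0% in saline male 3 to 81.0% in saline male 2. The lowest and the highest share of Gnai1, Gnai2, Gnb1, Gnb2 and Gng3 were thus both found in saline males. Gnao1 had its highest share, 23.9%, in morphine male 6.

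No member passed the study's threshold for a differentially expressed gene (a log2 fold change beyond ±0.26 with an unadjusted p under 0.05) in either sex, in both sexes combined, or in the interaction of treatment and sex. The count was 0 of 10 in edgeR's quasi-likelihood test of all 12 mice with sex as covariate, where 1.19% of the 18608 genes tested passed. It was 0 of 10 in the 3 against 3 females, where 1.81% of 18109 genes passed, and 0 of 10 in the 3 against 3 males, where 2.99% of 18166 genes passed. It was again 0 of 10 in the interaction, the log2 fold change of males less that of females, where 2.94% of 19027 genes passed. No member reached an unadjusted p under 0.05 in these 4 tests, and the smallest adjusted p of a member was 0.9999 combined, 0.9998 in females, 0.9999 in males and 0.985 in the interaction. DESeq2 passed 1 member, Gnb2 in females, and edgeR's exactTest none. The ranges of the saline and morphine mice overlapped for all 10 members in each comparison, whereas they did not overlap for 0.0376% of genes over both sexes, 5.67% in females and 8.86% in males. The exact permutation test of 3 against 3 mice cannot give a p below 0.1.

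**Figure D2:**
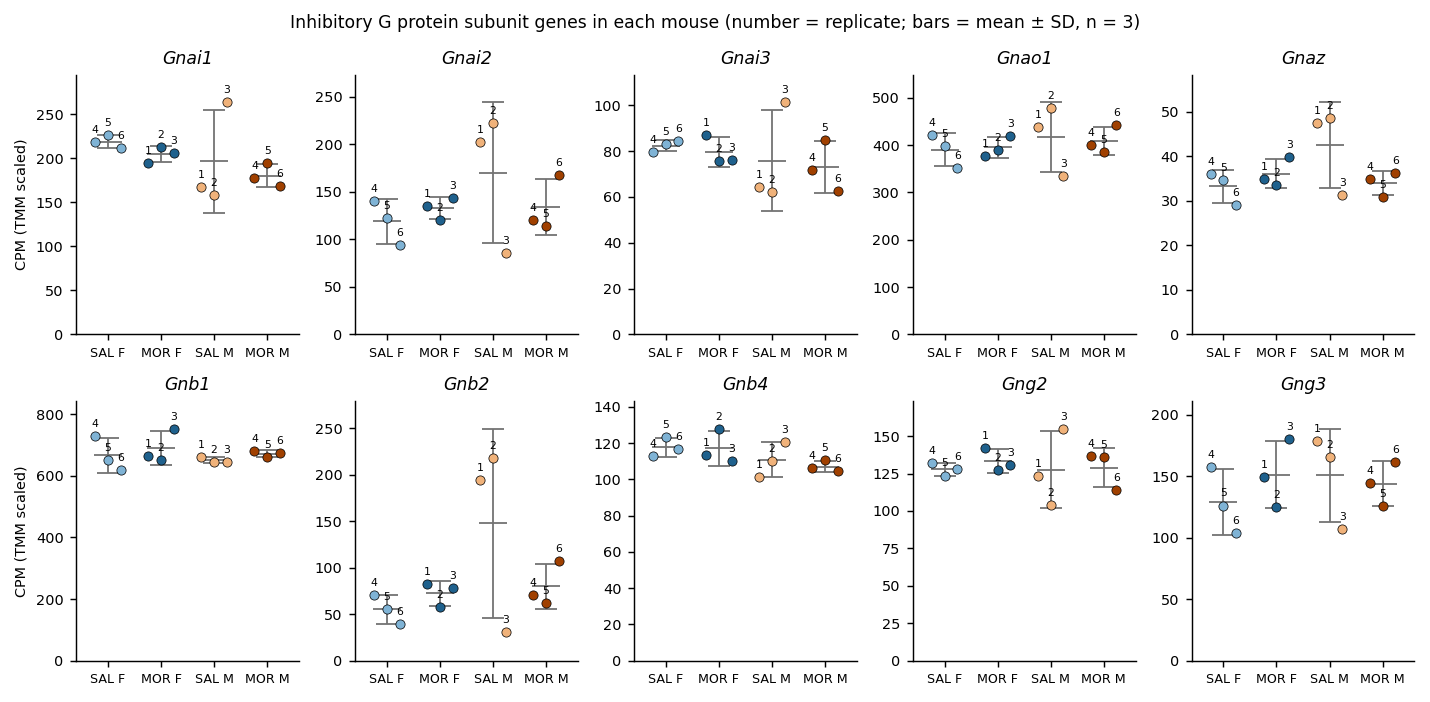
CPM of the 10 subunit genes in each mouse (SAL, saline; MOR, morphine; F, female; M, male), with the replicate number above each point and the mean ± SD of each group of 3 in grey. Saline males have the largest SD for every gene but Gnb1, with Gnb2 between 31.1 and 218 CPM, and no gene separates morphine from saline mice in either sex.

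Gnai1 (chr5:18265135-18360355, minus strand), which encodes Gαi1, lay between 158 CPM in saline male 2 and 264 CPM in saline male 3. In females it was at 219, 226 and 212 CPM in saline mice 4, 5 and 6 and at 195, 213 and 206 CPM in morphine mice 1, 2 and 3. The ranges of the females just overlapped. The log2 fold change was -0.11 (SE 0.08) in females and -0.15 (SE 0.21) in males.

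Gnai2 (chr9:107614125-107635367, minus strand) encodes Gαi2, a Gi subunit of neurons and of most other cells. In saline males it was at 202, 223 and 85.8 CPM in mice 1, 2 and 3, and in morphine males at 120, 114 and 168 CPM in mice 4, 5 and 6. In females it was at 141, 122 and 93.7 CPM in saline mice 4, 5 and 6 and at 135, 120 and 144 CPM in morphine mice 1, 2 and 3. The morphine mice of both sexes lay inside the range of the saline males. The log2 fold change was 0.16 (SE 0.14) in females and -0.37 (SE 0.36) in males.

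Gnai3 (chr3:108107280-108146146, minus strand), which encodes Gαi3, ran opposite to Gnai2, with 64.2 and 62.1 CPM in saline males 1 and 2 and 101 CPM in saline male 3. Its other 9 mice lay between 62.5 and 87.2 CPM. Gnao1 (chr8:93809966-93969388, plus strand) encodes Gαo, the main G protein alpha subunit of neurons, and lay between 334 CPM in saline male 3 and 477 CPM in saline male 2. The log2 fold changes of Gnai3 and Gnao1 were within 0.09 of 0 in both sexes. Gnao1 averaged 402 ± 24.4 CPM in morphine mice and 403 ± 53.7 CPM in saline mice (SD, n = 6 each).

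Gnaz (chr10:74967177-75016907, plus strand) encodes Gαz, a slow alpha subunit of neurons that, unlike the others, is insensitive to pertussis toxin. In males it was at 47.4, 48.6 and 31.4 CPM in saline mice 1, 2 and 3 and at 34.8, 30.9 and 36.3 CPM in morphine mice 4, 5 and 6. In females it was at 36.1, 34.7 and 29.0 CPM in saline mice 4, 5 and 6 and at 34.9, 33.6 and 39.7 CPM in morphine mice 1, 2 and 3. Only saline males 1 and 2 stood above the other 10 mice. The log2 fold change was 0.11 (SE 0.11) in females and -0.35 (SE 0.20) in males, and the difference between the sexes, -0.44 (SE 0.24), had an unadjusted p of 0.0883 (edgeR, adjusted p = 0.985).

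Of the beta genes, Gnb1 (chr4:155491361-155559269, plus strand), the predominant beta subunit here, was the steadiest of all members without a correction for GC content. It lay between 619 and 753 CPM, and its log2 CPM had an SD of 0.08 over the 12 mice. It averaged 681 ± 36.9 CPM in morphine mice and 658 ± 37.0 CPM in saline mice (SD, n = 6 each), a log2 fold change of 0.05 (SE 0.07). In males its 3 saline mice lay between 645 and 662 CPM and its 3 morphine mice between 661 and 681 CPM. Gnb4 (chr3:32580332-32616585, minus strand), a beta subunit of lower level, was nearly as steady, at 102 to 128 CPM, with a log2 fold change of -0.03 (SE 0.07).

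Gnb2 (chr5:137528127-137533510, minus strand), a beta subunit found in most tissues, was the most variable member, with an SD of log2 CPM of 0.82, and only 51 of 9974 genes at a mean of 10 CPM or more had a larger one. In saline males it was at 194, 218 and 31.1 CPM in mice 1, 2 and 3, a 7.0-fold range that held both the highest and the lowest value of the 12 mice. In morphine males it was at 71.0, 62.0 and 108 CPM in mice 4, 5 and 6. In saline females it was at 70.4, 55.5 and 39.5 CPM in mice 4, 5 and 6, and in morphine females at 82.6, 57.3 and 78.2 CPM in mice 1, 2 and 3. All 3 morphine females were above the mean of the saline females, and all 3 morphine males below the mean of the saline males, but both pairs of ranges overlapped. The log2 fold change was 0.39 (SE 0.20) in females, with an unadjusted p of 0.0734 by edgeR, and -0.90 (SE 0.64) in males, with an unadjusted p of 0.199 by edgeR. The exact two-sided permutation p was 0.2 in females and 0.7 in males. The difference between the sexes was -1.28 (SE 0.72), with an unadjusted p of 0.101 and an adjusted p of 0.985 by edgeR.

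Of the gamma genes, Gng2 (chr14:19872559-19977627, minus strand) lay between 104 CPM in saline male 2 and 155 CPM in saline male 3, with log2 fold changes of 0.05 (SE 0.09) in females and -0.01 (SE 0.18) in males. Gng3 (chr19:8836933-8839194, minus strand), a gamma subunit of neurons, was at 158, 126 and 104 CPM in saline females 4, 5 and 6 and at 149, 125 and 180 CPM in morphine females 1, 2 and 3. In males it was at 179, 166 and 108 CPM in saline mice 1, 2 and 3 and at 144, 126 and 162 CPM in morphine mice 4, 5 and 6. The log2 fold change of Gng3 was 0.22 (SE 0.16) in females and -0.09 (SE 0.21) in males, and the groups overlapped widely. Bscl2, a gene on the opposite strand, shares 24.2% of the exonic bases of Gng3 and averaged 1420 counts, and no source gives the strand setting of the counting, so that the count of this shared stretch is uncertain. Gm48283, also on the opposite strand of its neighbour, overlaps 20.4% of the exonic bases of Gng2 and had 0 counts. Without the strand setting, these 0 counts cannot show that the count of Gng2 over this stretch is complete.

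**Figure D3:**
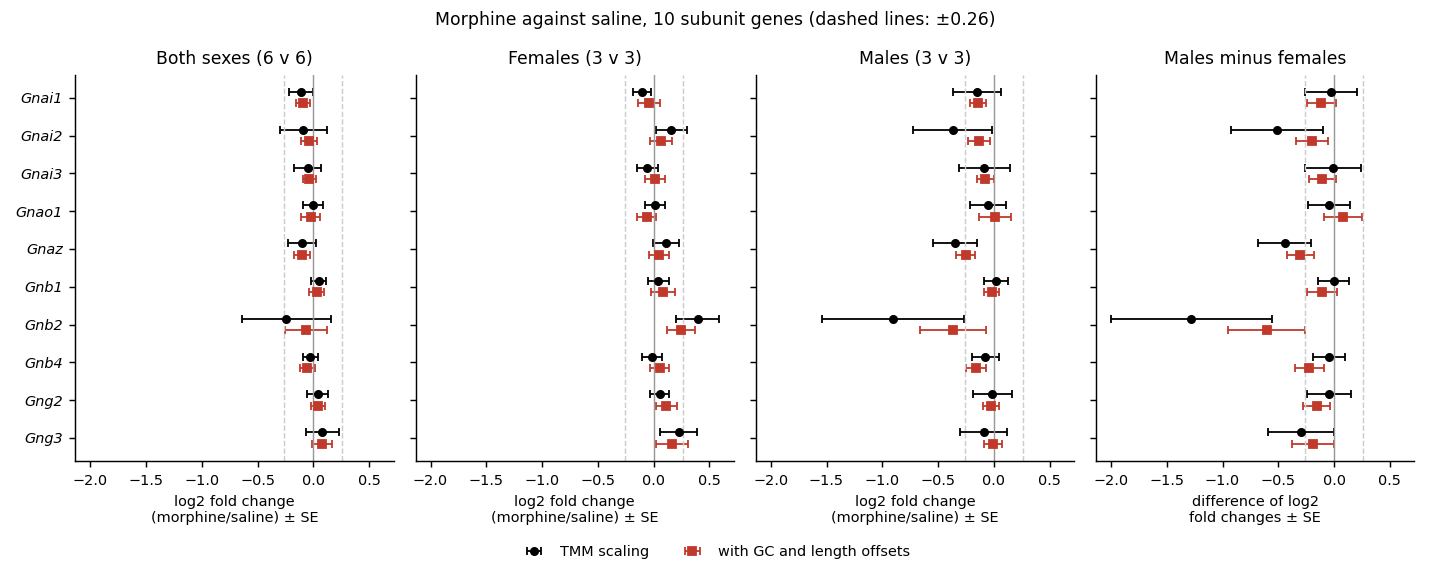
Log2 fold change (morphine over saline, ± SE) of the 10 subunit genes over both sexes, in females and in males, and the difference of the changes (males minus females), with TMM scaling (black circles) and with offsets for GC content and length (red squares). Dashed lines mark ±0.26; Gnb2 has the widest error bars, and its change in males moves from -0.90 to -0.36 with the offsets.

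Over the 10 members the median log2 fold change was -0.04 with both sexes, 0.05 in females, -0.09 in males and -0.05 in the interaction, beside -0.02, -0.01, -0.06 and -0.03 over all genes tested. The median absolute change of the members was 0.07 combined, 0.08 in females and 0.09 in males, against 0.08, 0.10 and 0.16 over all genes. In males 9 of the 10 were lower in morphine mice, and in females 7 of the 10 were higher. With DESeq2 size factors and with offsets for GC content and length, 8 and 9 of the 10 were lower in males and 7 and 8 higher in females. Scaling by total counts, which shifts all genes of a library alike, shifted the male median over all genes from -0.06 up to 0.06. The female count stayed at 7 higher under it, whereas 6 of the 10 members were then higher in males, 5 of 10 with both sexes, and 6 of 10 in the interaction, where TMM scaling gave 1, 3 and 0.

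The members moved in opposite directions along the GC slope (the plot of members against the GC slope). Exonic GC content, taken over the longest transcript, was 59.9% in Gnb2, 56.7% in Gnai2, 56.1% in Gnao1, 54.8% in Gnaz and 53.8% in Gng3. These values were all above the median of 49.1% of the genes tested. It was 48.1% in Gnb1, 45.4% in Gnb4, 43.8% in Gng2, 42.6% in Gnai1 and 41.7% in Gnai3. Across the 12 libraries, log2 CPM followed the library's GC slope with Pearson's r = 0.99 for Gnai2, 0.98 for Gnb2, 0.95 for Gnao1, 0.90 for Gnaz and 0.85 for Gng3. It ran against the slope in Gnai3 (r = -0.92), Gnai1 (-0.89), Gng2 (-0.78) and Gnb4 (-0.68), and r was 0.22 in Gnb1. The third-position share given above did not order the members in this way, since Gng2 (70.4%) and Gnai1 (64.1%) ran against the slope. No test addressed what sets these relations. Each point is 1 library, and the slope is measured over 18598 genes of that same library. Spearman's rho was 0.94 for Gnai2 and 0.95 for Gnb2, and without the 2 farthest libraries, saline males 2 and 3, r stayed at 0.97 for both. Within the 6 morphine mice r was 0.93 for Gnai2 and 0.92 for Gnb2, and within the 6 saline mice 0.99 for both. For Gng2 the relation was weak without the 2 farthest libraries (r = -0.42).

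**Figure D4:**
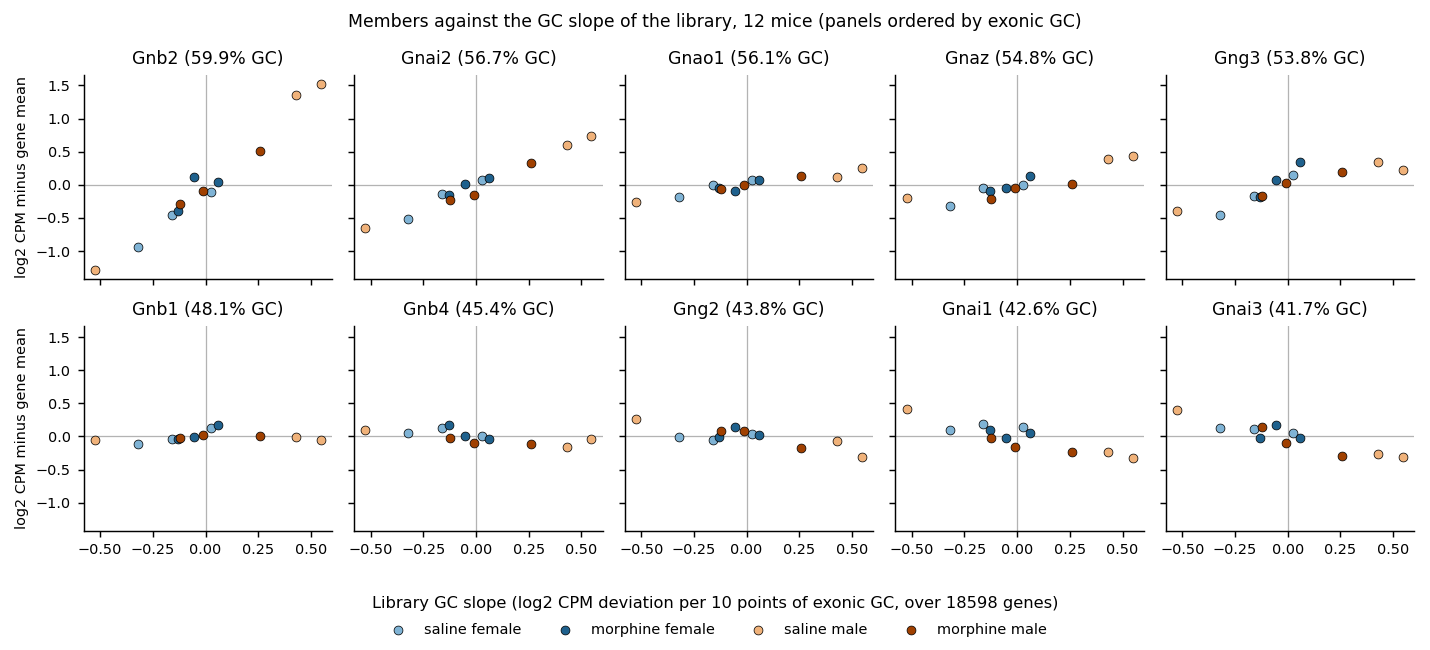
Log2 CPM of each member minus its mean over 12 mice (y axis) against the GC slope of the library (x axis, log2 CPM deviation per 10 points of exonic GC), 1 point per mouse, panels ordered by exonic GC content. Gnb2 and Gnai2 rise along the slope with r of 0.98 and 0.99, Gnb1 stays level, and Gnai1 and Gnai3 decline, with the 3 saline males at the ends of the axis.

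The members correlated with each other accordingly. Gnai2 and Gnb2 had r = 0.98 over the 12 mice, Gnai1 and Gnai3 r = 0.89, and the paralogs Gnai1 and Gnai2 r = -0.81. After each library's loess trend with GC content and gene length was removed, r was 0.75 for Gnai2 and Gnb2, 0.55 for Gnai1 and Gnai3, and 0.48 for Gnai1 and Gnai2. Gnb1 and Gng3 came to r = 0.94 from 0.65, whereas Gnao1 and Gnb2 went from 0.90 to -0.85. For this last pair the saline males held both ends of the corrected values. In saline males 1, 2 and 3 corrected log2 CPM was 8.35, 8.40 and 8.90 for Gnao1 and 6.92, 6.92 and 5.69 for Gnb2. The correlation of the pair without these mice was not tested. The ratio of Gnb2 to Gnb1 per kilobase showed the same axis in 1 number. It was 0.37 and 0.42 in saline males 1 and 2, 0.06 in saline male 3, 0.08 to 0.12 in saline females, 0.11 to 0.16 in morphine females and 0.12 to 0.20 in morphine males. The genes whose log2 CPM was most like that of Gnb2 were Zmiz2, Dlgap3, Eno1b, Cbarp and Ptov1 (r between 0.998 and 0.999 over 12 mice, of 9974 genes compared). Such likeness was common, since 1989 of these genes had r above 0.9 with Gnb2, at a median GC content of 56.5%, and 610 had r below -0.9, at a median of 43.3%. The neighbours of Gnb2 on the chromosome, Gigyf1 and Actl6b, had r = 0.86 and 0.95.

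The summed levels of some cell type markers also moved with Gnb2. Over the 12 mice r with Gnb2 was 0.77 for oligodendrocyte markers, 0.78 for endothelial, 0.73 for microglial and 0.73 for red blood cell markers, and -0.65 for astrocyte and -0.33 for neuronal markers. It was 0.54 for noradrenergic and 0.12 for serotonergic neuron markers, -0.20 for cerebellar granule cell and -0.36 for oligodendrocyte precursor markers. For choroid plexus, meningeal fibroblast and forebrain markers r was 0.23, -0.27 and -0.25. The 6 of 6 oligodendrocyte markers detected summed to 38296 to 58687 CPM in saline males, 33688 to 42444 in morphine males, 38227 to 48808 in saline females and 41602 to 46474 in morphine females. The 4 of 4 endothelial markers summed to 154 to 209 CPM in saline males, 171 to 178 in morphine males, 177 to 185 in saline females and 165 to 197 in morphine females. The 6 of 6 microglial markers summed to 151 to 221 CPM in saline males, 158 to 167 in morphine males, 140 to 187 in saline females and 158 to 187 in morphine females, and the red blood cell markers (4 of 5 above 1 CPM) to 112 to 470 CPM over all mice. The part of these cells in the spread of Gnb2 was not tested. In whole brainstem, fewer cells of a type and less RNA per cell cannot be told apart.

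Fold changes followed the same axis. Across all genes tested, the log2 fold change correlated with GC content at r = 0.28 in females, -0.30 in males and -0.33 in the interaction (across genes, which are not independent replicates). In the 10% of genes richest in GC the median log2 fold change was 0.17 in females and -0.40 in males. The 5 members with a GC content above the median all had positive log2 fold changes in females and negative ones in males (the plot of fold change by GC content). Some of these signs turned under other settings. Gnao1 and Gng3 turned positive in males under scaling by total counts. Gnao1 turned negative in females and positive in males with the offsets described next. With 1 mouse left out, Gnao1 reached -0.05 in females and 0.06 in males, and Gng3 reached 0.05 in males. With loess offsets for GC content and gene length in the same test, the correlation across genes was -0.01 in females and -0.00 in males. The log2 fold change of Gnb2 was then 0.24 (SE 0.13) in females and -0.36 (SE 0.29) in males, and that of Gnai2 was 0.07 (SE 0.10) and -0.14 (SE 0.10). The SD of log2 CPM over the 12 mice fell from 0.82 to 0.39 for Gnb2 and from 0.41 to 0.13 for Gnai2 once the trends were removed. It was lower in 7 of the 10 members and higher in Gnao1 (0.14 to 0.16), Gnb1 (0.08 to 0.10) and Gnb4 (0.10 to 0.12). Gnai3 (0.086) and Gng2 (0.0996) then had a smaller SD than Gnb1 (0.102). Gnb2 still ranged 2.34-fold after the correction. With the offsets 1 of the 10 members had an unadjusted p under 0.05 by edgeR in males, beside 1852 of 18166 genes. Without the offsets 543 genes had such a p. This member was Gnaz, at -0.25 (SE 0.09), with an unadjusted p of 0.0203 by edgeR and an adjusted p of 0.444. With the offsets Gnaz also differed between the sexes by -0.30 (SE 0.12), with an unadjusted p of 0.0275 by edgeR and an adjusted p of 0.738. That difference passed the threshold, as did 6.12% of all genes under these offsets.

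**Figure D5:**
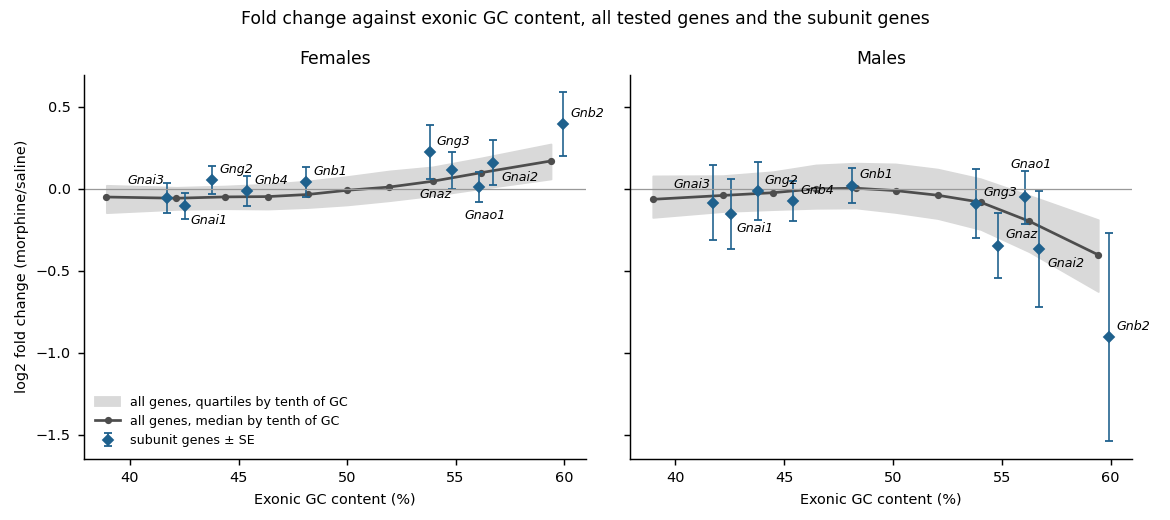
Log2 fold change (morphine over saline) against exonic GC content in females and males. The grey line and band give the median and quartiles of all tested genes in 10 equal bins of GC content, and diamonds the 10 subunit genes ± SE; the median of the highest bin is 0.17 in females and -0.40 in males, and Gnb2, at 59.9% GC, lies beyond it in both.

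Leaving out single libraries changed whether a member passed. Without saline male 3, Gnb2 (log2 fold change -1.35, SE 0.22, adjusted p = 0.0123), Gnai2 (-0.65, SE 0.18, adjusted p = 0.0464) and Gnaz (-0.49, SE 0.12, adjusted p = 0.0323) were lower in morphine than in the 2 remaining saline males by edgeR's quasi-likelihood test. That omission left 3 of 10 members past the threshold, beside 28.6% of all genes, so that the members' share was near the background. With the offsets and without saline male 3, 1 of 10 members passed, Gnb2 at -0.66 (SE 0.10, adjusted p = 0.00568), beside 19.5% of all genes. In the interaction 4 of 10 members passed without saline male 3, namely Gnb2 (-1.78), Gnai2 (-0.85), Gnaz (-0.64) and Gng3 (-0.51), beside 24.1% of all genes. Without saline male 1 the log2 fold change of Gnb2 in males was -0.67 (SE 0.73), without saline male 2 it was -0.51 (SE 0.69), and no member passed in either case. Without the library labelled morphine male 6, Gnb2 in males was at -1.19 (SE 0.75) and Gnai2 at -0.57 (SE 0.40), and no member passed. In females, 3 of 10 members passed without saline female 4, namely Gnb2 (0.60), Gng3 (0.39) and Gnai2 (0.29), beside 7.95% of all genes, and 1 of 10 without morphine female 2, Gnb2 (0.54), beside 3.73% of all genes. None of these female values had an adjusted p under 0.58.

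In the wider pathway 0 to 2 genes of a list passed in any comparison, beside 1.19% of all genes with both sexes, 1.81% in females, 2.99% in males and 2.94% in the interaction. Of 8 other G alpha genes tested in males, 1 fell: Gnas, which encodes the stimulatory Gαs that opposes Gi at adenylyl cyclase (log2 fold change -0.33, SE 0.14). Of 9 other beta and gamma genes tested in males, 2 fell, Gng11 (-0.49, SE 0.16) and Gng5 (-0.44, SE 0.18). Gng11 also fell over both sexes (-0.29, SE 0.11), the only one of 10 to do so, and Gng5 differed between the sexes by -0.52 (SE 0.22). None of the other Gi/o-coupled receptors (25 tested, 26 in the interaction) and none of the 9 adenylyl cyclases passed in any comparison. Of the 4 GIRK channel genes, Kcnj6, which encodes GIRK2, was higher in morphine males (0.49, SE 0.16) and differed between the sexes by 0.68 (SE 0.23). Of the RGS proteins and G protein chaperones, which turn the alpha subunit off or bind it, Gpsm1 was higher in morphine females (0.32, SE 0.14) and Rgs14 differed between the sexes by -1.58 (SE 0.71), 1 of 22 and 1 of 23 genes. All of these calls rest on an unadjusted p, and the adjusted p of edgeR was 0.985 or more for each. Gnas (57.8% GC) and Gpsm1 (58.9% GC) were among the 10% of genes richest in GC. The median log2 fold change of that 10% was -0.40 in males and 0.17 in females. GC content was 52.4% in Gng11, 39.4% in Gng5, 48.2% in Kcnj6 and 52.0% in Rgs14. The part of GC content in these calls was not tested. Kcnj6 passed in the interaction under all 18 alternatives and in males under 10 of 14, and Gng11 passed under 18 of 21 over both sexes and 13 of 14 in males. The other calls were lost under many settings. Gnas passed under 2 of 14 alternatives, Gng5 under 3 of 14 in males and 7 of 18 in the interaction, Rgs14 under 6 of 17, and Gpsm1 under 8 of 14.

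The opioid receptors that act through these subunits were measured beside them. Per kilobase of exon, the mu receptor gene Oprm1 averaged 0.42 ± 0.12 CPM (SD, n = 12), the kappa receptor gene Oprk1 1.56 ± 0.23, the delta receptor gene Oprd1 2.83 ± 0.35 and the nociceptin receptor gene Oprl1 24.5 ± 1.44. Gnb4, the lowest member by the union of exons at 8.91 CPM per kilobase, was thus above Oprm1, Oprk1 and Oprd1. Oprm1 was at 3.50 ± 0.96 CPM in morphine mice and 3.24 ± 0.99 CPM in saline mice (SD, n = 6 each), and 0 of the 4 receptor genes passed in any comparison.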

How the data were processed

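Libraries were poly-A selected and sequenced as 100 bp single-end reads on 1 lane. Per the labels and the study's methods, the authors used Trimmomatic for quality trimming, STAR for alignment to mm10 and featureCounts for exon reads per gene, and the study calls the deposited values normalized read counts. The deposited file holds whole-number counts whose totals differ between libraries, and these were used as unscaled counts (strand setting and versions not given in the sources used here). From the counts, edgeR 4.0.16 in R 4.3.3 gave TMM factors, CPM (log2 CPM with a prior count of 2) and quasi-likelihood tests on all genes kept by filterByExpr, adjusted by Benjamini-Hochberg over all genes tested. SE is the absolute log2 fold change divided by the root of F. Sex was the covariate of the test of all mice. Dam, the study's other covariate, is in no label. Genes passed with a log2 fold change beyond ±0.26 at an unadjusted p under 0.05. Positions, exon lengths and GC content came from GENCODE M21 on GRCm38, where all 55418 symbols matched and 115 stand for more than 1 gene, none of them a member. Per-kilobase levels divide by the union of exons, whereas GC content is that of the longest transcript. Correlations across mice are descriptions with no p.

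The rule for the members uses gene names alone, but the members and the wider lists were chosen with earlier results of these data known. Every member is named; of the wider lists, the genes that passed in any of the 4 tests and the opioid receptors; and for the most variable member, the 5 genes most like it and its neighbours. Alternatives were DESeq2 1.42.0, its size factors in edgeR, total counts, no filter, loess offsets for GC content and length (span 0.5), a minimum of 10 counts in each library, exactTest, no covariate, the contrast from all 12 mice, the replicate number as a block, and leaving out each mouse. Combining the offsets with leaving out each mouse was chosen after seeing the data. The tests were tried on simulated counts with known changes. Those counts had no GC trend between libraries, so they do not cover the GC slopes seen here. No 2 libraries of a group were alike within sampling noise (mean chi-square per gene 15.1 or more). Replicate numbers were taken from the labels.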

Additional observations from a re-analysis of the deposited data

Results flagged for a closer look

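In the groups of 6 mice of 1 treatment, 2 values stood far from the other 5 of their group, in 20 groups tested (10 genes in 2 treatments). Gnb1 was at 753 CPM in morphine female 3, against 651 to 681 CPM in the other morphine mice. Gnb4 was at 128 CPM in morphine female 2, against 105 to 113 CPM in the other morphine mice. Chance flags about 1 in 20 such groups. Both values were the highest of their gene over all 12 mice. No value of a saline group stood apart by this measure.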

How the results depend on the processing

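The count of members past the threshold stayed at 0 over both sexes under every alternative, including the replicate block (0 of 10; log2 fold change of Gnb2 -0.07; genes past the threshold 182 against 221). Same-numbered saline and morphine mice correlated at -0.36 to 0.18, inside the range of differently numbered ones, -0.54 to 0.49. Whether same-numbered mice shared a litter was not tested. For the interaction the block could not be fitted, because the numbers separate the same mice as the interaction. In females 1 member (Gnb2) passed with DESeq2 and 1 with no filter, beside 322 of 18102 and 1094 of 34716 genes. In the interaction 1 passed with no filter (Gnb2) and 1 with the offsets (Gnaz), beside 1665 of 37483 and 1165 of 19027 genes. The cause was not tested. Leaving out each mouse gave 0 to 3 members in females, 0 to 3 in males and 0 to 4 in the interaction. Over all genes the same settings passed 208 to 1482 in females, 253 to 5341 in males and 290 to 4695 in the interaction. With the offsets as well, chosen after seeing the data, the member counts were 0 in the combined test, 0 to 2 in females and 0 to 1 in males. They were 0 to 3 in the interaction, and Gnaz passed in 3 of the male and 7 of the interaction settings. Over all genes 241 to 987 then passed in females, 780 to 3639 in males and 606 to 3090 in the interaction.

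The sign of a member's change turned in 26 of 310 values under other settings (13 of them with total counts) and in 46 of 360 without 1 mouse, in no case where the value or its alternative passed. The largest main change to turn was 0.15 (log2). Without 1 mouse, Gnb2 in males ran from -1.35 to -0.51, in females from 0.21 to 0.60, and in the interaction from -1.78 to -0.89.

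Over all genes, no filter raised the counts from 221 to 754 (both sexes), 328 to 1094 (females), 543 to 985 (males) and 559 to 1665 (interaction), and the offsets raised males to 1270 and the interaction to 1165. The contrast from all 12 mice lowered females to 218. Without saline male 3 males reached 5341. Total counts turned the split in males from 349 higher and 194 lower to 737 and 70, in the interaction from 306 and 253 to 569 and 132, and over both sexes from 113 and 108 to 181 and 68. The lowest count of a member in a library was 940 (Gnaz in morphine male 5), and 3 mice a group set the limit of the tests within a sex.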
